A study of Homo sapiens with 148 samples.

Results

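The MEIS, PBX, PKNOX and TGIF genes described here are 9 members of the TALE class of homeodomain transcription factors: MEIS1, MEIS2, MEIS3, PBX2, PBX3, PBX4, PKNOX1, PKNOX2 and TGIF1. They were taken by gene name from a table of mean RNA abundance that holds 49085 names, and each of the 9 has a single entry in it. Values are TPM, an RNA level corrected for transcript length and expressed against a fixed total per library, so that levels of different genes can be compared.

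The RNA came from wild-type H9 cells, an established human embryonic stem cell (hESC) line, and from spheroids of the same line taken through pancreatic differentiation. Definitive endoderm (DE) was collected at day 4 after activin A, CHIR99021 and Y27632. Primitive gut tube-like cells (PGT) were collected at day 7 after KGF. Pancreatic progenitors (PP) were collected at day 14 after KGF, Sant1, LDN193189, PdBU, retinoic acid and Y27632. Stem cell-derived β-cell (SC-β) organoids were collected at day 35 after further medium with XXI, betacellulin, Alk5i II and T3. In its earlier part that medium also held Sant1 and retinoic acid. A sixth group, PH, carries only that name in the labels and is not defined in the methods. Each stage had 2 RNA-seq samples, which makes 12 of the 148 samples in the labels. The deposited value is the authors' mean for each stage, so no spread between replicates, standard error or test can be given, and the order of 2 stages with close values cannot be judged. All groups derive from 1 cell line, and in such bulk RNA a change in the share of cells that express a gene and a change in RNA per cell cannot be told apart.

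TALE homeodomains carry a short insertion between their first and second helices, the loop extension that names the class. PBX proteins bind DNA together with MEIS or PKNOX proteins, which also help to hold PBX in the nucleus, and these pairs in turn join HOX proteins and pancreatic homeodomain factors such as PDX1 on DNA. TGIF1 differs from the others in that it mainly acts as a corepressor, including on SMAD proteins downstream of activin-type signals. MEIS genes respond to retinoic acid in many embryonic tissues and are known from blood stem cells, limb and gut mesenchyme and the nervous system.

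The stretch of coding sequence around the loop extension is shown for 7 members because it is the feature that they share and that sets the class apart. Each run is 102 bases of the GENCODE version 44 canonical transcript (GRCh38, the build that the authors call hg38), read 5′ to 3′ on the coding strand, with the 9 bases that encode the insertion in capitals. All of it is coding exon.
MEIS1: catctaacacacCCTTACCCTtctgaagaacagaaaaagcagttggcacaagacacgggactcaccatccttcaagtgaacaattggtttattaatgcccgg
MEIS2: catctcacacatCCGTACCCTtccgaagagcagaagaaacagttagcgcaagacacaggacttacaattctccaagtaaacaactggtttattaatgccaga
MEIS3: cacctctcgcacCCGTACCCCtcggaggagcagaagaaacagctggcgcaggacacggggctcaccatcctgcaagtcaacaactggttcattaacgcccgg
PBX2: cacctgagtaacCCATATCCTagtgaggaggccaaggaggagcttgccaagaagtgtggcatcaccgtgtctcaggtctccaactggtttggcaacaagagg
PBX3: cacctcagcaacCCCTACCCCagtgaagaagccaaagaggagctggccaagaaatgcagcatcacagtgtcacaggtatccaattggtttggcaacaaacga
PKNOX2: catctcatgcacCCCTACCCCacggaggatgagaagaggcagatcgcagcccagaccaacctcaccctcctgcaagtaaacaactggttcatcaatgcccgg
TGIF1: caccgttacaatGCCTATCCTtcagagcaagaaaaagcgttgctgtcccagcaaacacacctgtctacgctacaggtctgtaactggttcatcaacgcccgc

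The MEIS1 run lies on chromosome 2 between 66512286 and 66567468 on the forward strand, over exons 8 to 10. That of MEIS2 lies on chromosome 15 between 36896671 and 37036822 on the reverse strand, and that of MEIS3 on chromosome 19 between 47407122 and 47409107, also reverse. PBX2 (chromosome 6, 32187369 to 32187721, reverse) and PBX3 (chromosome 9, 125935533 to 125960710, forward) hold theirs in exons 5 and 6. The PKNOX2 run is on chromosome 11 from 125411857 to 125429978 and the TGIF1 run on chromosome 18 from 3456506 to 3457391, both on the forward strand. MEIS1 and MEIS2 were identical at 84 of the 102 bases, PBX2 and PBX3 at 83, and PKNOX1 and PKNOX2 at 79, whereas MEIS1 and PBX2 matched at 56. Even so, the longest run shared by the canonical transcripts of any 2 members was 28 bases, between PBX2 and PBX4. No member shared a run of 50 bases, the read length, with another member.

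Across the differentiation series the clearest pattern was that of MEIS1 and MEIS2, which were close to 0 in hESCs and were the most abundant members in PP, PH and SC-β organoids. MEIS1 (ENSG00000143995.20, chromosome 2, 66433452 to 66573869, forward strand) had 0.325 TPM in hESCs, then 2.09 in DE, 39.9 in PGT, 128 in PP, 161 in PH and 229 in SC-β organoids. Each stage of the timed series was higher than the one before it. MEIS2 (ENSG00000134138.22, chromosome 15, 36889204 to 37101299, reverse strand) was at 0.111 TPM in hESCs, then 10.2 in DE, 80.3 in PGT, 102 in PP, 120.1 in PH and 197 in SC-β organoids. The order of the stages was therefore the same for both genes, and their profiles had Pearson's r of 0.957 over the 6 stage means, on the scale log2(TPM + 1).

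The stages at which the paralogs gained most were not the same. Log2 ratios are given throughout as the difference of log2(TPM + 1), which understates changes of genes near 0. For MEIS2 the ratio of DE to hESCs was 3.33, against 1.22 for MEIS1, and MEIS1 had only 0.205 times the TPM of MEIS2 in DE. From DE to PGT, the ratios were 3.73 for MEIS1 and 2.86 for MEIS2. From PGT to PP, MEIS1 was higher by 1.65 and MEIS2 by 0.35, after which MEIS1 exceeded MEIS2 by 1.25 times in PP. Both were less than 2-fold higher in SC-β organoids than in PP, at 0.84 and 0.94. From hESCs to SC-β organoids the log2 ratios came to 7.44 and 7.48. With a pseudocount of 0.1 in place of 1 they were 9.08 and 9.87, since the hESC values lie far below 1 TPM.

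MEIS3 (ENSG00000105419.18, chromosome 19, 47403124 to 47419527, reverse strand), which is studied mainly in hindbrain patterning, was lower from DE to PGT and from PGT to PP. MEIS1 and MEIS2 were higher over these steps, as over every step of the timed series. From PP to SC-β organoids MEIS3 was higher too, with a log2 ratio of 0.62. MEIS3 was at 62.3 TPM in hESCs, then 59.1 in DE, 33.1 in PGT and 16.2 in PP, then at 74.4 in PH and 25.5 in SC-β organoids. hESCs and DE were close, PP was lowest, and PH was highest and stood 4.58 times above PP in TPM. The log2 ratio of SC-β organoids to hESCs was -1.26. MEIS3 thus supplied 99.3% of the summed MEIS TPM in hESCs and 82.8% in DE, but only 21.6% in PGT and 6.59% in PP. Its share was 20.9% in PH and 5.64% in SC-β organoids. Summed over the MEIS genes, hESCs had 62.8 TPM and SC-β organoids 452 TPM, a smaller fold than that of MEIS1 or MEIS2 alone. The ratio of summed MEIS to summed PBX TPM, over the PBX genes used here, was 1.62 in hESCs, 0.464 in DE and 3.47 in SC-β organoids.

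**Figure D1:**
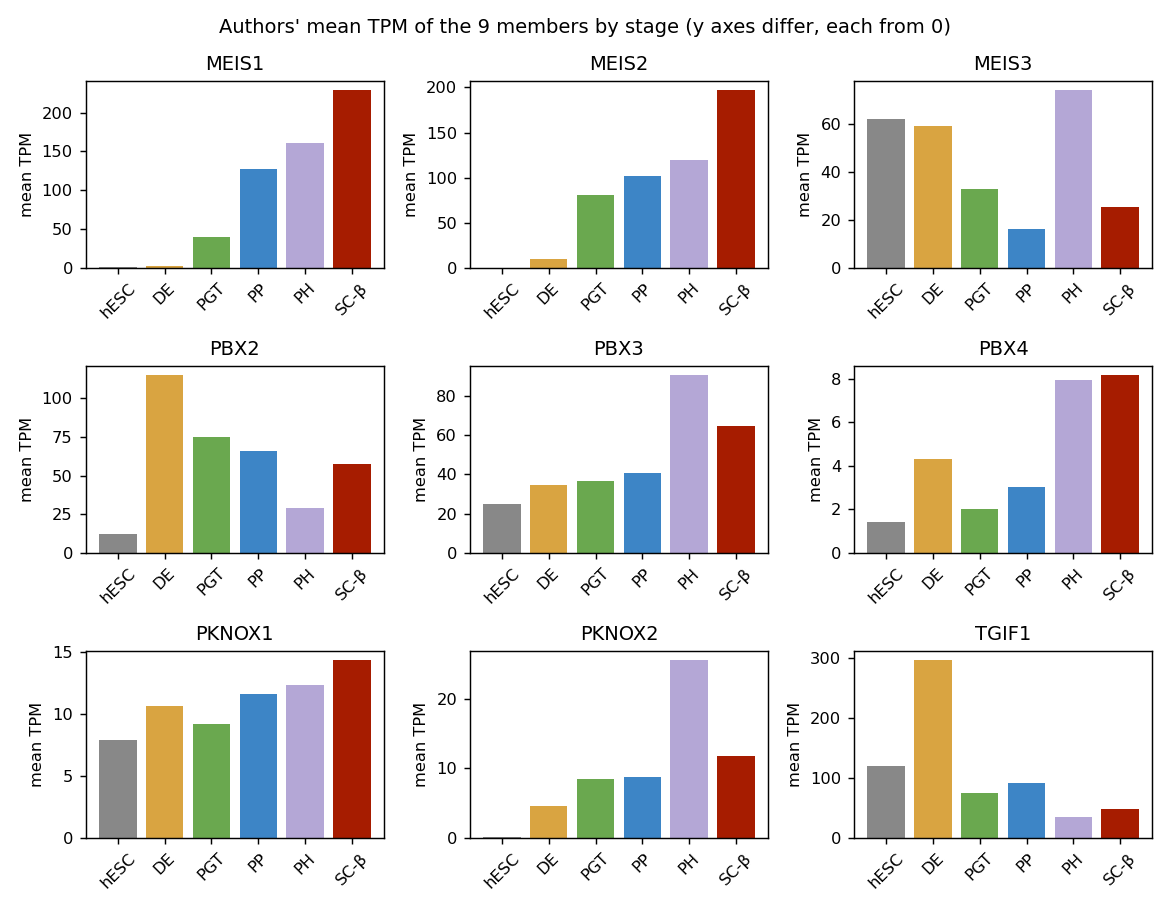
Authors' mean TPM of each of the 9 genes (y axes, each starting at 0 with its own range) in the 6 stages (x axes), 1 bar per stage without error because only means were deposited. MEIS1 and MEIS2 stand below 1 TPM in hESCs and at 229 and 197 TPM in SC-β organoids, PBX2 and TGIF1 peak in DE, and MEIS3, PBX3 and PKNOX2 are highest in PH.

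The PBX genes moved less than MEIS1 and MEIS2, and in different directions. PBX2 (ENSG00000204304.12, chromosome 6, 32184733 to 32190202, reverse strand), a widely expressed PBX paralog, was at 12.3 TPM in hESCs, then 115 in DE, 75.2 in PGT, 66.0 in PP, 28.8 in PH and 57.7 in SC-β organoids. It was highest in DE, at 9.37 times its hESC TPM (log2 ratio 3.13), and each later timed stage was lower than the one before. PBX3 (ENSG00000167081.18, chromosome 9, 125747345 to 125967377, forward strand) had 25.1 TPM in hESCs, then 34.5 in DE, 36.9 in PGT, 40.8 in PP, 90.7 in PH and 64.7 in SC-β organoids. No step between successive timed stages reached 2-fold, the largest being that from PP to SC-β organoids (log2 ratio 0.65). PH exceeded PP by more than 2-fold (log2 ratio 1.13). The ratio of PBX3 to PBX2 TPM was 2.04 in hESCs, 0.30 in DE, 0.617 in PP, 1.12 in SC-β organoids and 3.15 in PH, so that the more abundant of this pair differed between stages. PBX4 (ENSG00000105717.14, chromosome 19, 19561707 to 19618693, reverse strand), best known from testis, was the lowest PBX gene of these at every stage. It was at 1.41 TPM in hESCs, then 4.32 in DE, 2.02 in PGT, 3.04 in PP, 7.97 in PH and 8.18 in SC-β organoids. The last pair differed by 0.03 on the log2 scale.

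PKNOX1 and PKNOX2 (also called PREP1 and PREP2) are the other partners that bind PBX. PKNOX1 (ENSG00000160199.15, chromosome 21, 42974510 to 43033931, forward strand), a broadly expressed gene, varied least of the 9, with 7.92 TPM in hESCs, then 10.7 in DE, 9.21 in PGT, 11.6 in PP, 12.3 in PH and 14.4 in SC-β organoids. The whole range spans 0.78 on the log2 scale, and none of its ratios reached 2-fold. PKNOX2 (ENSG00000165495.16, chromosome 11, 125164687 to 125433389, forward strand) had 0.172 TPM in hESCs, then 4.57 in DE, 8.41 in PGT, 8.78 in PP, 25.5 in PH and 11.7 in SC-β organoids. MEIS3, PBX3 and PKNOX2 had their highest value in PH, and PKNOX2 had the widest margin over the highest timed stage, at 2.18 times SC-β organoids in TPM. PKNOX2 made up 2.12% of the summed PKNOX TPM in hESCs, between 29.9% and 47.7% in the timed stages that followed, and 67.4% in PH.

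TGIF1 (ENSG00000177426.22, chromosome 18, 3411608 to 3459978, forward strand), the corepressor among them, was at 120.0 TPM in hESCs, then 297 in DE, 74.3 in PGT, 91.5 in PP, 34.7 in PH and 48.4 in SC-β organoids. It was the most abundant of the 9 in hESCs and DE, and in DE it stood above 98.8% of the 21619 genes that reached 1 TPM. The DE value was 2.47 times that of hESCs, and PGT was back at 0.250 times DE (log2 ratio -1.98). In SC-β organoids TGIF1 ranked 5 of the 9 in TPM, and its log2 ratio to hESCs was -1.29. Of the summed TPM of all 9 genes, which was 229.6 in hESCs and 657 in SC-β organoids, TGIF1 held 52.3% in hESCs and 7.37% in SC-β organoids. MEIS1 and MEIS2 held 34.9% and 30.02% there.

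**Figure D2:**
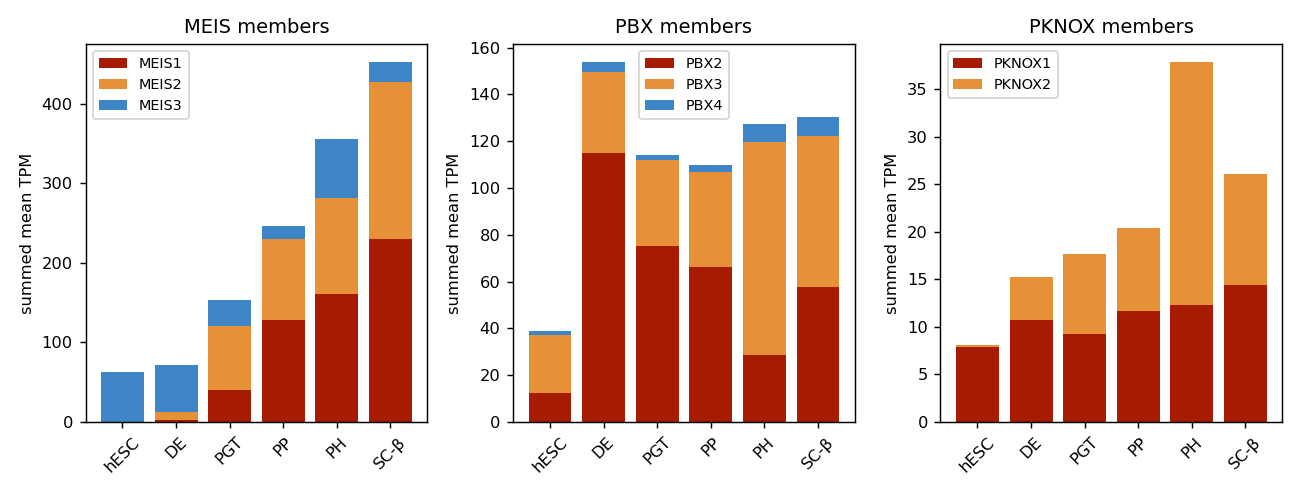
Summed mean TPM (y axes) of the MEIS, PBX and PKNOX genes used here in the 6 stages (x axes), with 1 colour per gene. MEIS3 fills nearly the whole hESC bar (99.3%) and MEIS1 and MEIS2 fill the SC-β bar, PBX2 leads in DE and PBX3 in PH, and PKNOX2 exceeds PKNOX1 in PH.

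Set against all genes, the step from hESCs to DE held the most members past 2-fold among the successive steps. The background in each case is every gene that reached 1 TPM in either of the compared stages, which with this pseudocount are the genes that could reach 2-fold. In DE, 6 of the 9 genes were at least 2-fold higher than in hESCs (MEIS1, MEIS2, PBX2, PBX4, PKNOX2 and TGIF1), where 28.2% of 22514 genes were, and 0 were lower, where 5.55% were. The median log2 ratio of the 9 was 1.22 beside 0.58 for the background, so the background was itself shifted upward. When stages were rescaled by the median ratio over 13938 genes present in all of them, the background median was 0.21 and TGIF1 (0.82) and PBX4 (0.81) were under 2-fold. PBX2 remained at 2.67 and MEIS2 at 3.12.

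In PGT against DE, 2 genes were higher (MEIS1 and MEIS2; 4.94% of the background) and 1 was lower (TGIF1; 10.6%). In PP against PGT, MEIS1 alone was at least 2-fold higher (6.3%) and 0 were lower (7.46%), with MEIS3 just short of it at -0.98. In SC-β organoids against PP, only PBX4 was higher, at 1.18 (20.7%), and 0 were lower (1.84%). PBX4 was at 0.95 after the rescaling, which moved that background median from 0.45 to 0.23, and TGIF1 then passed 2-fold downward, at -1.17. Over the whole course from hESCs to SC-β organoids, 6 genes were higher (MEIS1, MEIS2, PBX2, PBX3, PBX4 and PKNOX2), where 42.4% of 25644 genes were, and MEIS3 and TGIF1 were lower, where 7.08% were. PBX3 was at 1.33 in that comparison and at 0.82 after the rescaling.

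PH was compared with the stages on either side of it in the table. Against PP, MEIS3 (2.13), PKNOX2 (1.44), PBX4 (1.15) and PBX3 (1.13) were higher, where 11.5% of 21944 genes were, and TGIF1 (-1.37) and PBX2 (-1.17) were lower, where 12.8% were. Against SC-β organoids, MEIS3 (1.51) and PKNOX2 (1.06) were higher, where 4.6% of genes were, and 0 were lower, where 28.1% were. MEIS1 and MEIS2 differed little between PH and PP, at 0.33 and 0.23. Structural RNAs took 50.9% of the TPM total in PH, against between 31.8% and 42.2% in the other stages, and their part alone in these ratios was not tested. The ratios were also taken without the mitochondrial and the 100 most abundant genes, the latter being 62.8% of the PH total. PH to SC-β organoids was then -0.06 for MEIS1, -0.26 for MEIS2, 1.98 for MEIS3 and 1.54 for PKNOX2. PBX2 was then at -0.99 in PH to PP, under 2-fold. With the rescaling, PBX2 in PH was at -0.95 to PP.

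**Figure D3:**
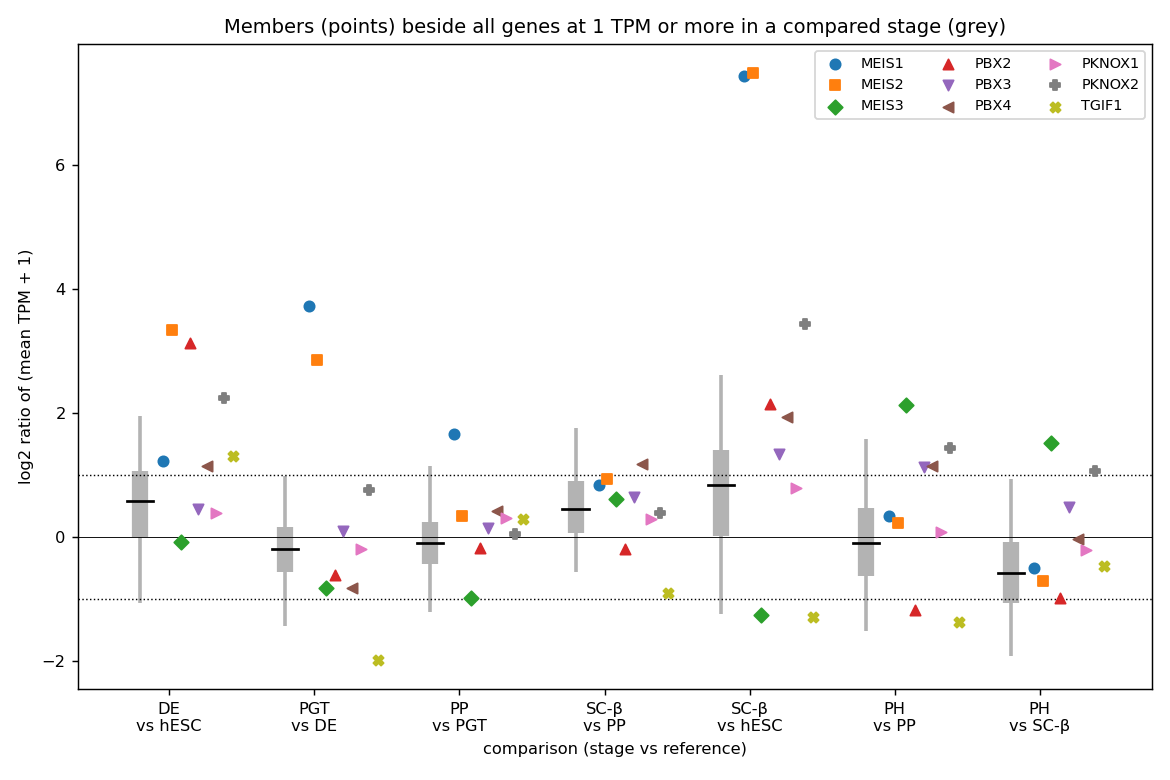
Log2 ratio of mean TPM + 1 (y axis) of the 9 genes (coloured points) in 7 comparisons of stages (x axis), beside the background genes (grey: thin line from the 5th to the 95th percentile, thick line from the 25th to the 75th, black bar at the median). Dotted lines mark 2-fold, and MEIS1 and MEIS2 stand at 7.44 and 7.48 in SC-β organoids against hESCs, where the background median is 0.83.

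Entries that share sequence or position with a member bear on how its value can be read. MEIS1-AS3 (chromosome 2, 66426735 to 66433470, reverse strand) is a long noncoding RNA whose annotated start overlaps that of MEIS1 head to head, and MEIS1-AS2 (66439088 to 66444221, reverse strand) lies inside MEIS1 on the opposite strand. Both were listed at 0 in hESCs. MEIS1-AS2 was at 0.166 TPM in DE, 3.44 in PGT, 12.5 in PP, 19.2 in PH and 25.6 in SC-β organoids, between 7.96% and 11.9% of MEIS1 from DE on. MEIS1-AS3 did not exceed 3.19 TPM. Whether the counting used strand is not given in the sources used here, so where exons of MEIS1 and these RNAs overlap their reads cannot be told apart. The span of MEIS1 holds the whole of MEIS1-AS2 but only the outermost bases of MEIS1-AS3, most of which lies outside MEIS1. Overlap of exons was not compared.

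For MEIS3 the related entries are the processed pseudogenes MEIS3P1 and MEIS3P2 on chromosome 17, which share runs of up to 78 and 86 bases with its canonical transcript. MEIS3P1 was at 7.98 TPM in hESCs, then 18.9 in DE, 15.4 in PGT, 14.9 in PP, 7.01 in PH and 10.3 in SC-β organoids. It was thus at 91.8% of MEIS3 in PP and at 9.42% in PH, and was lowest in PH and hESCs, where MEIS3 was highest. MEIS3P2 ranged from 2.1 TPM in PH to 15.3 TPM in DE. With both added to MEIS3, an alternative chosen after seeing the data, the log2 ratio of SC-β organoids to hESCs was -0.82 and that of PH to SC-β organoids 0.99, both under 2-fold. The ratio of PH to PP was 1.12 with them added, against 2.13 for MEIS3 alone, and that of DE to hESCs was 0.33 against -0.07. PBX2P1, which shares a run of 174 bases with PBX2, stayed between 3.37% and 6.55% of PBX2, and TGIF1P1 did not exceed 0.169 TPM.

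**Figure D4:**
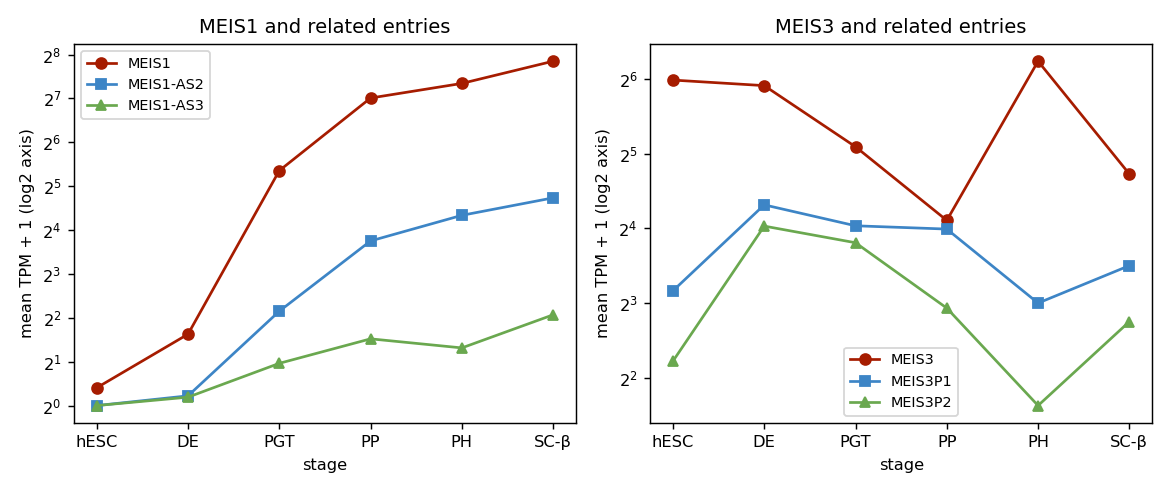
Mean TPM + 1 (y axes, log2) of MEIS1 with its antisense RNAs (left) and of MEIS3 with its processed pseudogenes (right) in the 6 stages (x axes), the points joined in the order of the table. MEIS1-AS2 lies at 8.62% to 11.9% of MEIS1 from PGT on, whereas MEIS3P1 nearly meets MEIS3 in PP (91.8% of it) and parts from it in PH.

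HOX genes, which encode the DNA-binding partners of PBX and MEIS, were nearly silent in hESCs, DE and PGT, with summed levels of 1.54, 0.683 and 6.66 TPM over the 36 of 39 listed. The sum was 181 TPM in PP, 941 in PH and 366 in SC-β organoids. In PP, 18 of the 36 were at least 2-fold higher than in PGT, where 6.3% of all genes were, and 0 were lower, where 7.46% were. MEIS2 at 80.3 TPM and MEIS1 at 39.9 TPM in PGT were therefore present at a stage in which a single HOX gene, HOXB2 at 4.24 TPM, exceeded 1 TPM. HOXB3, the most abundant of the list, was at 0.603 TPM in PGT, 31.5 in PP, 135 in PH and 53.4 in SC-β organoids. HOXB9 and HOXB6 reached 118 and 88.4 TPM in PH and 3.43 and 8.62 TPM in SC-β organoids. In PH against PP, 20 of the 36 were higher and 2 lower, beside 11.5% and 12.8% of all genes.

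Among the pancreatic homeodomain genes, PDX1, which can bind DNA with PBX and MEIS, was below MEIS1 and MEIS2 at every stage. It was listed at 0 in hESCs and DE and was at 0.243 TPM in PGT, 3.17 in PP, 0.0173 in PH and 1.57 in SC-β organoids. The leading genes of that list included ISL1 (58.3 TPM in PGT) and PAX6 (17.2 in PH), which is also among the neural progenitor markers below. All 7 of the list were at least 2-fold higher in SC-β organoids than in hESCs, where 42.4% of all genes were, and 6 of 7 were lower in PH than in SC-β organoids, where 28.1% were. MEIS1 and MEIS2 in PH had log2 ratios to SC-β organoids of -0.51 and -0.71, where the background median was itself -0.59. After the rescaling by the median ratio, MEIS1 was at -0.01 and MEIS2 at -0.22.

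Markers of other cell types moved with some of these values. The 10 mesenchymal markers summed to 143 TPM in hESCs, then 80.2 in DE, 104 in PGT, 190.1 in PP, 1021 in PH and 1947 in SC-β organoids. Of these, 9 passed 2-fold upward both in SC-β organoids and in PH against PP, beside 20.7% and 11.5% of all genes. From PP to SC-β organoids, MEIS1, MEIS2 and PBX3 were higher by 0.84, 0.94 and 0.65, where the background median was 0.45 and its 75th percentile 0.90. After the rescaling by the median ratio they were at 0.57, 0.67 and 0.38. The part of mesenchymal cells in these ratios was not tested. In PGT, where MEIS1 and MEIS2 were at 39.9 and 80.3 TPM, 6 of the 10 markers reached 1 TPM and the list was mixed. PDGFRA had 4.17 TPM in DE and 62.0 in PGT and LUM had 0.0178 and 3.71, both at least 2-fold higher in PGT as MEIS1 and MEIS2 were, while COL1A2 (15.9 TPM in PGT) and THY1 (6.16) were at least 2-fold lower. PDGFRB stood at 6.88 TPM and COL1A1 at 7.63, and COL3A1, DCN, PRRX1 and TWIST1 were at 0.921, 0.276, 0.268 and 0.0643 TPM. The part of mesenchymal cells in the PGT values was not tested either.

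In PH, the 6 neuron markers summed to 1263 TPM against 149 in SC-β organoids and 113 in PP. All 6 were at least 2-fold higher than in either stage, beside 4.6% of all genes against SC-β organoids and 11.5% against PP. The 8 neural progenitor markers summed to 452 TPM against 185 and 129, with 7 at least 2-fold higher than in PP, beside 11.5% of all genes. MEIS3, PBX3 and PKNOX2 had their highest values in this same group, and the part of neural cells in those values was not tested. Pancreatic progenitor markers summed to 50.6 TPM in PP and 39.9 in PH, where PDX1 and NKX6-1 were below 1 TPM. ONECUT1 was also lower in PH, at 4.80 TPM against 20.6 in PP. PTF1A went the other way, at 7.61 TPM in PH against 1.02 in PP. SOX9, at 27.2 TPM in PH and 23.7 in PP, was the largest part of the PH sum. The 5 pluripotency markers summed to 2740 TPM in hESCs and the 5 endoderm markers to 2016 in DE. The 7 gut tube and hepatic markers summed to 1338 in PGT and 1399 in SC-β organoids, and the 7 endocrine markers to 4145 in SC-β organoids. Much of some sums came from 1 gene, with CER1 at 1483 TPM in DE and TTR at 943 in PGT. In SC-β organoids GCG was at 2793 TPM and INS at 298. The endothelial markers PECAM1 and CDH5 stayed below 0.5 TPM at every stage, while VWF was at 191 TPM in DE.

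**Figure D5:**
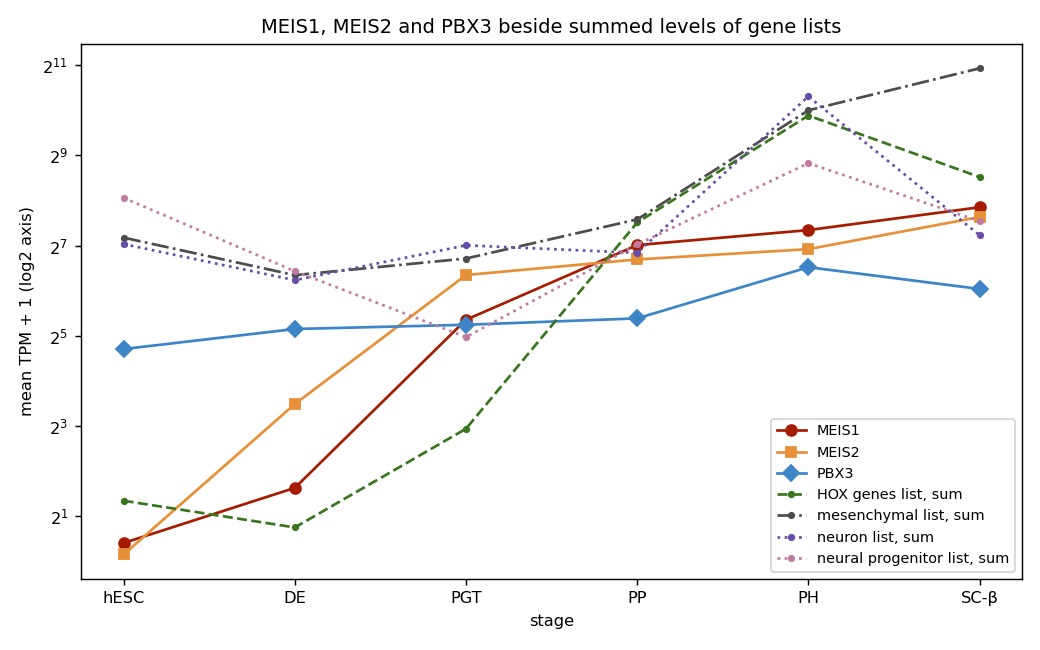
Mean TPM + 1 (y axis, log2) of MEIS1, MEIS2 and PBX3 beside the summed mean TPM + 1 of the HOX, mesenchymal, neuron and neural progenitor lists in the 6 stages (x axis), the points joined in the order of the table. MEIS1 and MEIS2 are at 39.9 and 80.3 TPM in PGT while the HOX sum is 6.66 TPM, and the neuron and HOX sums peak in PH (1263 and 941 TPM).

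The genes whose profiles were most like each member were taken by Pearson's r of log2(TPM + 1) over the 6 stage means, among 12849 genes that reached 10 TPM in any stage. With 6 points that share their columns, high r is common and says nothing about the size of the change: BAG1 had the highest r with MEIS1 (0.995) while going only from 11.3 to 24.2 TPM. Among the next were FRMD4B, TFAP2A and SUSD6, with r between 0.994 and 0.995, and 92 genes reached 0.95. TFAP2A also started near 0, at 0.0953 TPM in hESCs and 31.1 TPM in SC-β organoids. REPIN1 (0.999), ASAP2, KRBOX4, EPM2AIP1 and CEP41 were most like MEIS2. Among the 8 members compared in this way, which leaves out PKNOX1 for its narrow range, MEIS3 had the fewest genes at 0.95 or more, with 2, ACTG1 (0.982) and ZC4H2 (0.955), and DNAJB5 and SCG3 were among the next. ACTG1, a cytoplasmic actin, was at 655 TPM in hESCs, 300.3 in PP and 668 in PH.

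SMARCA1, a chromatin-remodelling ATPase, was most like PBX2 (0.994), with 46.6 TPM in hESCs and 165 TPM in DE, and BDH1, SNX14, NBPF11 and TRIM17 came next. Those most like PBX3 included NFATC4 (0.994), ZFP62, TACC2 and the pseudogene CSPG4P10. PKNOX2 had CBX8 (0.995), KIF3A, RALGDS, MTMR4 and ZNF688. CBX8, a Polycomb gene, was at 0.314 TPM in hESCs and 10.7 in PH. For PBX4 the genes with a name were ZNF274 (0.997), STAT5B, NBEA and TTBK2, and for TGIF1 they were PSENEN (0.988), ETNK2, DCUN1D1, HSD17B4 and PNPLA4.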

How the data were processed

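Per the methods of the study, total RNA was extracted with Trizol, ribosomal RNA was removed with RiboMinus and paired-end reads of 50 bases were sequenced, whereas the labels also name a TruSeq Stranded mRNA kit. Per the labels and methods, the authors used HISAT2 (version 2.2.0) for alignment against hg38 and StringTie (version 2.1.6) for TPM. The annotation is not given in the sources used here. The deposited TPM values are means over the replicates of each stage, in 6 columns of 50451 entries. TPM keeps no read counts, so depth per sample is unknown here, no interval or detection floor is given, and the study's edgeR test could not be repeated.

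Entries sharing 1 of 231 repeated names were summed. Log2 ratios used a pseudocount of 1 TPM, and genes were counted from 2-fold. Named genes were all 9 members in every stage, the 5 genes most like each member that spans at least 1 log2 unit, and the leading genes of each list, except a few that are not reported here. The members and lists were chosen with earlier results of these data known. Other genes of these families are not used here. Sequences and positions came from GENCODE version 44. The arithmetic of ratios, counts and rescaling was checked on simulated data without noise, which says nothing about how reliable the results are. Python 3.11.15, numpy 2.4.6, pandas 2.3.3 and matplotlib 3.10.9 were used.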

Additional observations from a re-analysis of the deposited data

How the results depend on the processing

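Among the counts of members, a pseudocount of 0.1 gave 2 in place of 1 lower in PGT against DE (PBX4 added), 1 in place of 0 lower in PP against PGT (MEIS3) and 1 in place of 0 lower in PH against SC-β organoids (PBX2). Rescaling by the median ratio gave 0 in place of 1 higher and 1 in place of 0 lower in SC-β organoids against PP, and 1 in place of 2 lower in PH against PP. Leaving out the mitochondrial and the 100 most abundant genes gave 1 lower in each of those comparisons. At 4-fold the counts were 3 higher in DE against hESCs, 0 lower in PGT against DE, 0 higher in PP against PGT, 0 higher in SC-β organoids against PP, 0 lower in SC-β organoids against hESCs, 1 higher and 0 lower in PH against PP, and 0 higher in PH against SC-β organoids. A higher threshold can only lower a count. The other 54 of these values stayed within 1.5 times. Limiting the members to 1 TPM or more could change none. Of the genes most like a member, 16 of 40 were also found when only genes at 30 TPM or more were compared, which leaves fewer genes to choose from. Of the log2 ratios of single members under alternatives, 197 kept their side of 2-fold, 8 fell under it, 5 passed it and 0 reversed from beyond 2-fold. Beyond these constructions the cause was not tested. No paired analysis was possible because each deposited column is a mean over its replicates, and for the same reason no replicate could be left out. Values below 1 TPM have no known precision.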

Other observations

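The IRX genes and MKX are further TALE-class genes. IRX2 was at 20.5 TPM in hESCs, then 4.39 in DE, 3.21 in PGT, 14.6 in PP, 21.6 in PH and 17.4 in SC-β organoids, the one gene of this list above 1 TPM in hESCs. IRX1 and IRX3 were below 0.5 TPM in hESCs and at 3.66 and 9.67 TPM in DE, and at 28.6 and 11.9 TPM in PH. Of the 7 genes, 3 were at least 2-fold higher and 1 lower in DE than in hESCs, beside 28.2% and 5.55% of all genes, and 3 were higher in SC-β organoids than in PP, beside 20.7%. MKX did not exceed 0.378 TPM.

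Genes of the retinoic acid response were compared because the medium held retinoic acid between PGT and PP and also early in the step after PP. Of the 8, 4 were at least 2-fold higher in PP than in PGT and 0 were lower, beside 6.3% and 7.46% of all genes. CRABP2, a retinoic acid carrier, was at 126 TPM in PGT and 563 TPM in PP, and STRA6 at 4.86 and 101 TPM. CYP26A1, which degrades retinoic acid, had 392 TPM in DE but 0.426 TPM in PGT. Over the step from DE to PGT, in which MEIS1 and MEIS2 had their log2 ratios of 3.73 and 2.86, 1 gene of the list was higher and 3 were lower, beside 4.94% and 10.6% of all genes. Among the 9 genes of the main list, MEIS1 alone was at least 2-fold higher in PP than in PGT.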
